A study of Mus musculus with 6 samples.

Results

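Fetub, the gene of the serum protein fetuin-B, was compared with 6 genes related to it by position or family in mammary tumors from NeuT/ATTAC mice. The 7 genes, of 54532 Ensembl gene IDs in each file, were Fetub, its chromosome 16 neighbors Ahsg, Hrg, Kng1 and Kng2, and the cystatins Cst3 and Cstb. Fetub was chosen by its measured FPKM in these same tumors, where it ranked 1 by p in the comparison of the groups, so its difference is described here without a test. The other 6 genes were taken by position or family, to see whether Fetub moved alone.

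RNAseq had been carried out on 3 tumors from IgG-treated mice and 3 from mice treated with an anti-PD-1 mAb, an antibody that blocks the PD-1 checkpoint receptor of T cells, with 1 library for each sample. Every mouse carried MMTV-NeuT, in which the MMTV promoter drives Erbb2 in the mammary epithelium, and FAT-ATTAC, a transgene that lets the dimerizer AP20187 kill adipocytes, on a background of FVB with FAT-ATTAC crossed in from C57BL/6. Animals of both groups had been given AP20187 at 0.4 mg/kg starting at 6 weeks of age to induce fibrosis, on a schedule that the methods call triweekly and the labels biweekly. The antibody or its isotype control was started at 8 weeks, at 100 μg per injection and 2 injections per week, so there was no tumor without AP20187 and none without an antibody. The labels number the samples of each group and give each its own code, but do not say that each came from a different mouse. A legend in the paper describes the RNA as pooled within a group before sequencing. Whether each library held 1 tumor or a pool is therefore uncertain. The libraries are called tumors below. The SDs and p-values measure the spread between them, and the sources do not say whether that is a spread between mice. It was wide for some genes, such as the cystatin gene Cst10 at 12.6, 554 and 0.196 FPKM in the IgG replicates. Expression is given as FPKM, fragments assigned to a gene, divided by its exon length and by library size.

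Fetuin-B and fetuin-A (Ahsg) are secreted mainly by the liver and carry a pair of cystatin-type domains, folds related to those of cysteine protease inhibitors. Fetuin-B blocks ovastacin, an astacin metalloprotease of the egg, and fetuin-A binds calcium phosphate in plasma and keeps it from precipitating. Histidine-rich glycoprotein (Hrg) and the kininogens (Kng1 and Kng2, from which kallikreins release bradykinin) belong to the same superfamily, and their genes lie beside the fetuins. Cystatin C (Cst3) is secreted by most cells and cystatin B (Cstb) stays inside them, and both inhibit lysosomal cathepsins.

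Of the relatives of Fetub, Ahsg was the one whose groups did not overlap. This other fetuin gene was 5.20 times as high in the anti-PD-1 group as in the IgG group, and no anti-PD-1 tumor was as low as any IgG tumor. As many as 9.1% of all tested genes were likewise higher without overlap, and the difference of Ahsg did not pass adjustment over all genes (limma adjusted p = 0.344). Kng2 varied widely within both groups, which overlapped. Hrg and Kng1 were nearly undetected in all 6 tumors. Cst3 and Cstb were abundant in both groups, which overlapped, with limma unadjusted p of 0.858 and 0.076.

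The genes of the locus are shown first by their promoters, since Fetub and Ahsg were higher in the same tumors. Hrg, between Fetub and the kininogens, was nearly undetected and too low to compare. Each sequence runs from 250 bases before to 50 after a RefSeq transcription start on GRCm38.p6, with matches to a TATA box (TATAAA) or to a C/EBP motif (TTGCNNAA, a site of liver-enriched factors) in capitals. In the order printed, they are chr16:22918132-22918431 and chr16:22891765-22892064 on the plus strand, chr16:22950822-22951121 on the plus strand and chr16:23029052-23029351 on the minus strand.
Fetub: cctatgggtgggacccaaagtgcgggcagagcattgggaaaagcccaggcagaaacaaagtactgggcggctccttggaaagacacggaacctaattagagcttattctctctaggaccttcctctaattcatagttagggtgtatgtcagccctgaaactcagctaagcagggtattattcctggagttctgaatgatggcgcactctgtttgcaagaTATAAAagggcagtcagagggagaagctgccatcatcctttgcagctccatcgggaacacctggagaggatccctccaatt
Ahsg: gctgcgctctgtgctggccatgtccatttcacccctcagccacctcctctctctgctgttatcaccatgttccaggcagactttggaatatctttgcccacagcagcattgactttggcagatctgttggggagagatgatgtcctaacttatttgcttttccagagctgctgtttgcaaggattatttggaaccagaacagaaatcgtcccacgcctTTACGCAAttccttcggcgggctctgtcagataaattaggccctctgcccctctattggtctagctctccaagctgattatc
Hrg: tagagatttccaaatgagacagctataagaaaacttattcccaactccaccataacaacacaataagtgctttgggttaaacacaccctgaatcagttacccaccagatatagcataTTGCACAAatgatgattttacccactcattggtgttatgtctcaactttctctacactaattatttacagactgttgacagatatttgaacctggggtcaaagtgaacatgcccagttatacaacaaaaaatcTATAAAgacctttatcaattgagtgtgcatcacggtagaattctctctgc
Kng2: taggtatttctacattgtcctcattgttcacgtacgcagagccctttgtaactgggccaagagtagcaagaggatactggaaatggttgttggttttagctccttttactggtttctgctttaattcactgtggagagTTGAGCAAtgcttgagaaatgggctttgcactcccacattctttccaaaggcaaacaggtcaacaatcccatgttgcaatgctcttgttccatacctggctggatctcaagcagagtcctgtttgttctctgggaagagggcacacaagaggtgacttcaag
The Fetub promoter held a TATA box starting 31 bases before the transcription start, and Ahsg held no TATAAA but a C/EBP match on the opposite strand, 32 bases before its start. Hrg held a C/EBP match 133 bases before the start and TATAAA at the start itself, and Kng2 held a C/EBP match on the opposite strand 112 bases before the start. A second RefSeq start of Fetub (chr16:22919972-22920271) and that of Cst3 (chr2:148875463-148875762, minus strand) held none. Both strands of each sequence were searched, also for CAAAGTNCA (HNF4) and GTTAATNAT (HNF1), which no member promoter held. Among 32851 RefSeq promoters of the same length, 13.6% held TATAAA, 10.8% the C/EBP motif, 1.41% the HNF4 motif and 0.801% the HNF1 motif. A match describes letters and not bound factor, and 5 of the 7 members had an entry, those without being Kng1 and Cstb.

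Fetub (ENSMUSG00000022871) lies on the plus strand of chromosome 16 at chr16:22918334-22939778 (GRCm38) and overlaps no other annotated gene. The tumors of the IgG group held 10.8, 8.98 and 15.9 FPKM (replicates 1, 2 and 3, from 423 to 761 reads), and those of the anti-PD-1 group held 78.1, 67.7 and 81.9 FPKM in the same order (3221 to 3920 reads). The anti-PD-1 tumors were all high and close to each other, and the lowest of them was 4.26 times the highest IgG tumor. The group means were 11.9 ± 3.59 and 75.9 ± 7.37 FPKM (SD, n = 3 each), 6.39 times apart. By mean level Fetub stood at rank 4431 of 15069 genes in the IgG group and at rank 619 in the anti-PD-1 group. On the log2(FPKM + 1) scale the difference was 2.61 ± 0.22 (SE), between 2.44 and 2.83 when each tumor was left out in turn.

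Ahsg (ENSMUSG00000022868, chr16:22891277-22899449, plus strand) ends 18.9 kb before the start of Fetub. FPKM was 0.269, 0.664 and 1.60 in the IgG replicates, from 13, 35 and 86 reads, and 2.97, 3.08 and 7.15 in the anti-PD-1 replicates, from 167, 164 and 373 reads. Its groups did not overlap, and the lowest anti-PD-1 tumor was 1.85 times the highest IgG tumor. 
The means were 0.845 ± 0.686 and 4.40 ± 2.38 FPKM (SD, n = 3 each), and the log2 difference was 1.53 ± 0.37 (SE; limma unadjusted p = 0.0042, adjusted p = 0.344). The log2(FPKM + 1) scale understates changes of genes this low, and with 0.1 added in place of 1 the difference was 2.404. A gene is called higher or lower here at an unadjusted p under 0.05 and at least 1.5-fold, and by this rule Ahsg was called higher. The study set thresholds on p and fold too, together with a minimum raw score that was not applied here. The rule called 3.9% of all tested genes higher and 4.53% lower (8.43% in either direction), whereas limma left 0 genes at an adjusted p under 0.05 and 1848 at an unadjusted p under 0.05. Of the 6 members other than Fetub, 4 were tested, and Ahsg was the 1 called. It remained called without each tumor in turn (log2 difference 1.19 to 1.81), with adjusted p between 0.172 and 0.766 over the limma settings tried. An exact permutation test of 3 against 3 tumors gave p = 0.1, the smallest it can give.

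**Figure D1:**
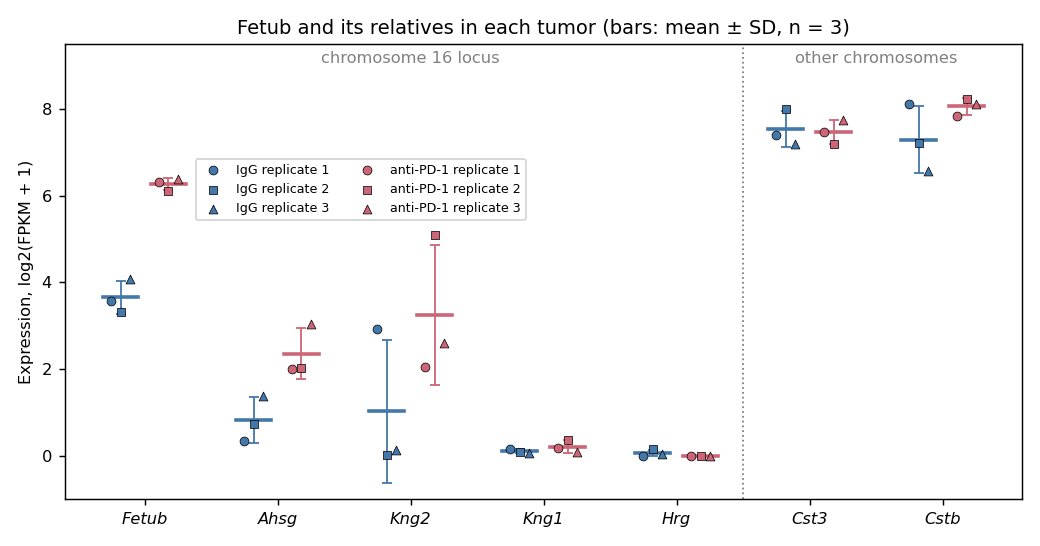
Expression of the 7 genes in each tumor, as log2(FPKM + 1), with IgG tumors in blue and anti-PD-1 tumors in red. The symbols stand for replicate numbers, and the bars are the mean ± SD of 3 tumors. Fetub and Ahsg separate the groups, Kng2 spans both, Kng1 and Hrg lie near 0, and Cst3 and Cstb overlap between the groups.

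The proportion of the fetuins varied from tumor to tumor. The ratio of Fetub to Ahsg FPKM was 40.1, 13.5 and 9.91 in the IgG replicates and 26.3, 21.99 and 11.5 in the anti-PD-1 replicates. These ratios overlapped between the groups, and replicate 3 had the lowest ratio of both. The antisense gene Gm30505 overlaps Ahsg and had at most 0.19 FPKM in any tumor. Whether the library kept strand is not given in the sources used here, so reads from the overlap cannot be told apart.

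The kininogen gene Kng2 (ENSMUSG00000060459, chr16:22985854-23029482, minus strand) lies 46.1 kb after Fetub. FPKM was 6.63, 0.0152 and 0.0899 in the IgG replicates, from 399, 1 and 6 reads, and 3.14, 33.0 and 5.10 in the anti-PD-1 replicates, from 220, 2189 and 331 reads. IgG replicate 1 was higher than anti-PD-1 replicates 1 and 3, and anti-PD-1 replicate 2 was far above every other tumor. The log2 difference was 2.22 ± 1.00 (SE; limma unadjusted p = 0.061, adjusted p = 0.423; exact permutation p = 0.3), which did not pass the call. Single tumors decided the value, which was 3.17 and called higher without IgG replicate 1 (limma unadjusted p = 0.009), 2.82 and called higher without anti-PD-1 replicate 1 (limma unadjusted p = 0.039) and 1.305 without anti-PD-1 replicate 2 (limma unadjusted p = 0.188). With 0.1 added in place of 1 it was 3.96 and called higher (limma unadjusted p = 0.039), likewise at 5.12 by limma voom on recovered reads (unadjusted p = 0.038).

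Kng1, the next protein-coding gene (ENSMUSG00000022875, chr16:23057865-23082078, plus strand), stayed between 0.0504 and 0.292 FPKM, and its highest count, 23 reads, was in the anti-PD-1 tumor with the most Kng2. Both kininogens are near-identical copies in much of their sequence, and reads shared between them may be split by the authors' counting. The low values of Kng1 and the values of Kng2 are therefore uncertain. Hrg (ENSMUSG00000022877, chr16:22951072-22961656, plus strand), whose product binds heparin and plasminogen, had 5 reads in IgG replicate 2, 1 in IgG replicate 3 and 0 in each of the other 4 tumors. A count of 0 allows up to 3 reads, which is 0.0588 to 0.0684 FPKM at the depth of these libraries and covers counting error only. Neither gene reached the mean FPKM of 0.5 needed for a test. Hrg lies 11.3 kb from Fetub, closer than Ahsg.

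Cst3 (ENSMUSG00000027447, chr2:148871722-148875692, minus strand), secreted cystatin C, had 169, 253 and 144 FPKM in the IgG replicates and 176, 146 and 215 in the anti-PD-1 replicates. The groups overlapped, with means of 189 ± 57.1 and 179 ± 34.6 FPKM (SD, n = 3 each). The log2 difference was -0.05 ± 0.26 (SE; limma adjusted p = 0.955; exact permutation p = 1.0), and it turned positive without IgG replicate 2 (0.18) or anti-PD-1 replicate 2 (0.10). Cstb (ENSMUSG00000005054, chr10:78425669-78427622, plus strand), intracellular cystatin B, had 274, 146 and 93.4 FPKM in the IgG replicates and 229, 298 and 277 in the anti-PD-1 replicates. IgG replicate 1 lay among the anti-PD-1 tumors, and the other 2 IgG tumors lay below them. The log2 difference was 0.78 ± 0.38 (SE; limma unadjusted p = 0.076, adjusted p = 0.440; exact permutation p = 0.2). Without IgG replicate 1 it was 1.18 and called higher (limma unadjusted p = 0.003).

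Per length of exon, the cystatins outside the locus were the most abundant members in both groups. In the IgG group the order of mean FPKM was Cst3, Cstb, Fetub, Kng2, Ahsg, Kng1 and Hrg, and in the anti-PD-1 group Cstb led Cst3 (268 ± 35.7 against 179 ± 34.6 FPKM, SD, n = 3) and the rest kept their order. Cst3 and Cstb overlapped in the IgG group, as did Kng2 and Ahsg in both groups. Cst3 was 15.7, 28.2 and 9.09 times as high as Fetub in the IgG replicates and 2.26, 2.15 and 2.62 times in the anti-PD-1 replicates.

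**Figure D2:**
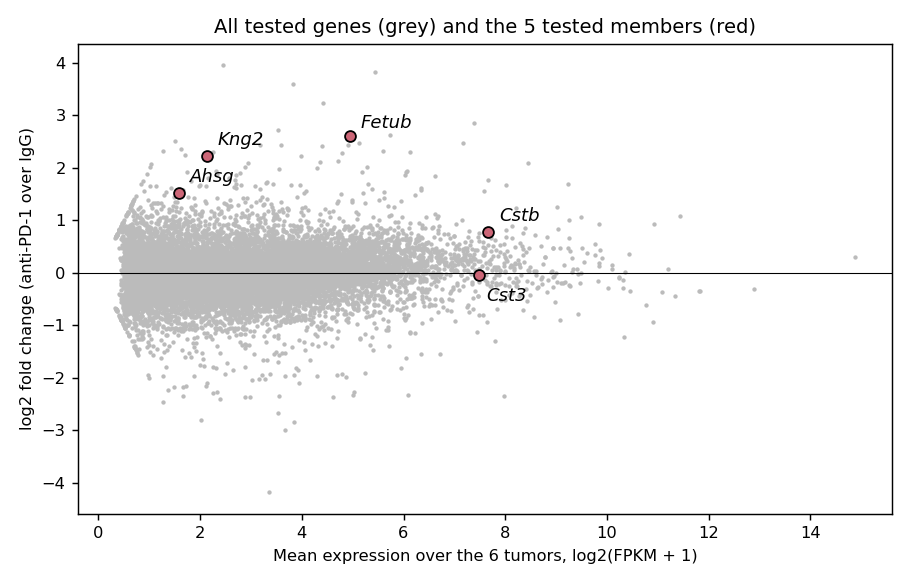
Log2 difference between the groups (anti-PD-1 over IgG) against mean expression over the 6 tumors, as log2(FPKM + 1), for the 15069 tested genes (grey) and the 5 tested members (red). Fetub (2.61), Kng2 (2.22) and Ahsg (1.53) lie above most genes, Cstb (0.78) lower and Cst3 (-0.05) near 0.

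Around Fetub, 65 other annotated genes, the members of the locus included, lay within 1 Mb on either side, 38 of them above 0 FPKM in some tumor and 18 tested. Of the 18, 3 were called higher and 0 lower (16.7% higher, against 3.9% of all genes), with a median log2 difference of 0.14 beside 0.01 over all tested genes. The 3 were Ahsg, St6gal1 and the small nucleolar RNA gene Gm24616. On chromosome 16 as a whole, Fetub left out, 19 of 471 tested genes (4.03%) were called higher and 15 lower.

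St6gal1, which encodes a sialyltransferase that caps N-glycans and lies 285 kb after Fetub, had 12.7, 7.09 and 4.19 FPKM in the IgG replicates and 21.6, 11.9 and 20.9 in the anti-PD-1 replicates. Anti-PD-1 replicate 2 lay below IgG replicate 1, so the groups overlapped. The log2 difference was 1.16 ± 0.38 (SE; limma adjusted p = 0.355), and the call was lost when IgG replicate 3, anti-PD-1 replicate 1 or anti-PD-1 replicate 3 was left out (limma unadjusted p = 0.052 to 0.059). Gm24616 (0.884 to 1.96 FPKM in the IgG and 1.82 to 4.45 in the anti-PD-1 tumors) lies within Eif4a2, with which it can share reads, and its call was lost in 4 of the 6 fits without 1 tumor, without the filter on low FPKM and by voom. Eif4a2, a translation initiation factor at 72.7 to 135 FPKM, had a log2 difference of -0.14 ± 0.27 (SE).

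Dnajb11, an endoplasmic reticulum chaperone gene 38.7 kb before Fetub, did not overlap between the groups either, which made 2 of the 18 tested neighbors with Ahsg, a share near the 9.1% of all genes. FPKM was 27.3, 27.7 and 25.5 in the IgG replicates and 37.5, 33.7 and 32.8 in the anti-PD-1 replicates. The tumors of each group were close, and the log2 difference of 0.36 ± 0.14 (SE; limma adjusted p = 0.384) was under 1.5-fold and so not called. Masp1, a protease of the complement lectin pathway 510 kb after Fetub, had a log2 difference of 0.74 ± 0.34 (SE; limma adjusted p = 0.433) with overlapping groups, and it was called higher by voom and without IgG replicate 1 or anti-PD-1 replicate 1. The other 11 tested neighbors had log2 differences from -0.26 to 0.29. Without 1 tumor, between 1 and 5 of the neighbors were called, with IgG replicate 3 left out giving 1 and IgG replicate 1 left out giving 5.

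**Figure D3:**
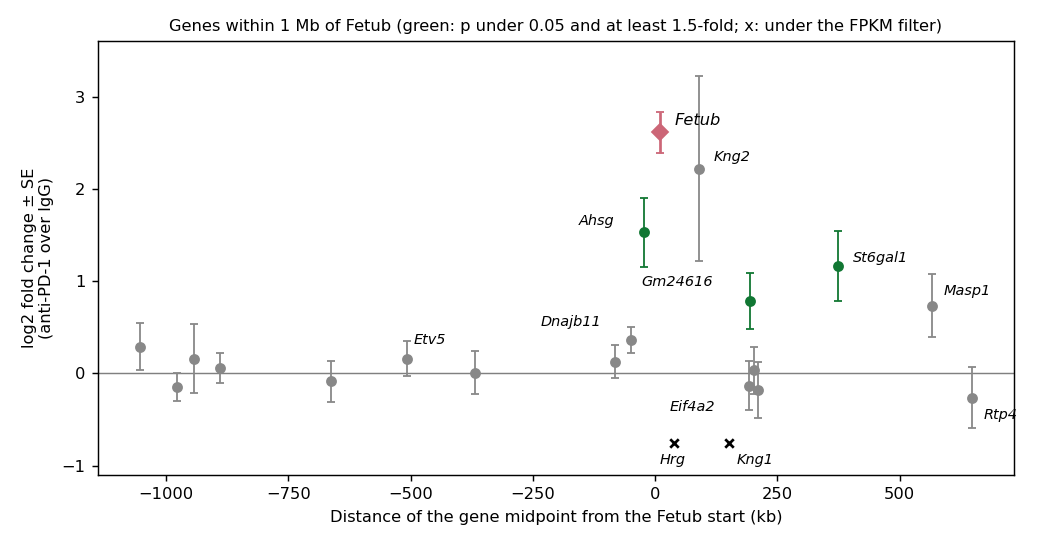
Log2 difference ± SE (anti-PD-1 over IgG) of the 18 tested genes within 1 Mb of Fetub and of Fetub itself, against the distance of each gene's midpoint from the Fetub start in kb. Green points were called higher, and the crosses at the bottom mark the positions of Hrg and Kng1, which were too low to test and have no value on the vertical axis. Ahsg (1.53), St6gal1 (1.16) and Gm24616 (0.79) are green, Kng2 has the widest error (1.00), and genes between them, such as Eif4a2 (-0.14), lie near 0.

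By profile over the 6 tumors, the 5 genes nearest to Fetub were outside the family, and Ahsg was the nearest of the other members. Likeness was the root mean square difference between log2(FPKM + 1) profiles, each centered on its own mean, over 15068 tested genes, and since it uses the contrast that chose Fetub it is a description. The 5 nearest were Mir6905 (0.45), Gstm1 (0.52), Sema3d (0.54), Pthlh (0.55) and Ptgfr (0.60). Ahsg stood at rank 13 (0.645), Cstb at 1219, Cst3 at 9551 and Kng2 at 10651. The log2(FPKM + 1) scale understates changes of genes as low as Ahsg.

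Gstm1, a glutathione transferase gene on chromosome 3, had 44.1, 22.4 and 38.3 FPKM in the IgG replicates and 86.8, 149 and 175 in the anti-PD-1 replicates. Pthlh, which encodes parathyroid hormone-related protein, had 1.07, 0.103 and 0.101 FPKM in the IgG replicates and 4.995, 8.94 and 4.73 in the anti-PD-1 replicates. Sema3d, a semaphorin gene, was at 1.08 to 2.39 FPKM in the IgG and 5.43 to 13.6 in the anti-PD-1 tumors, and Ptgfr, the prostaglandin F receptor gene, at 0.0430 to 0.617 and 2.08 to 3.69 FPKM. Genes picked for likeness to Fetub separate the groups by that choice, and Pthlh and Ptgfr reached the FPKM filter through the anti-PD-1 tumors. Mir6905, a microRNA gene, rested on 0 reads in the IgG tumors and 4, 7 and 5 in the anti-PD-1 tumors, and it lies within Med23, with which it can share reads.

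Few other genes of the superfamily were high enough to test. Of 27 further cystatin and stefin genes listed, 21 were in the files, 12 were above 0 FPKM in some tumor, and 3 were tested. Cst6, a secreted cystatin that inhibits legumain and cathepsins, had 8.90, 1.14 and 1.19 FPKM in the IgG replicates and 8.45, 10.7 and 11.7 in the anti-PD-1 replicates. IgG replicate 1 lay within the anti-PD-1 range and the other 2 IgG tumors far below it.

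Of the 3 tested, Cst6 was the 1 called, beside 3.9% of all genes called higher. It was higher (log2 difference 1.64 ± 0.57, SE; limma adjusted p = 0.365). The call was lost in 4 of the 6 fits without 1 tumor, and without IgG replicate 1 the difference was 2.37 (limma adjusted p = 0.0349). Lxn, which encodes the carboxypeptidase inhibitor latexin, had a log2 difference of 0.40 ± 0.22 (SE) and was not called. Cst10 ranged from 0.101 to 554 FPKM with a high and a low tumor in each group.

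The cysteine proteases that cystatins inhibit (cathepsins and legumain) were then read. All 11 listed were tested, and 0 were called higher and 1 lower, beside 8.43% of all genes called in either direction, with a median log2 difference of 0.04. Ctsh, the cathepsin H gene, was the one called lower, at 51.8, 84.8 and 57.3 FPKM in the IgG replicates and 49.7, 37.1 and 38.7 in the anti-PD-1 replicates (log2 difference -0.59 ± 0.23, SE; limma adjusted p = 0.387). Its groups did not overlap, which held for 8.99% of all genes in the lower direction, but the call was lost when IgG replicate 2, anti-PD-1 replicate 2 or anti-PD-1 replicate 3 was left out. The abundant Ctsb (0.20 ± 0.22), Ctss (0.04 ± 0.36) and Ctsz (-0.67 ± 0.30, log2 difference ± SE) were not called.

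Of 6 metalloproteases of the astacin family, to which ovastacin belongs, only Bmp1 was high enough to test. Bmp1, the procollagen C-proteinase, is of the tolloid branch of the family and is not known as a target of fetuin-B. Its FPKM was 14.3, 4.90 and 4.56 in the IgG replicates and 21.5, 11.8 and 13.9 in the anti-PD-1 replicates. IgG replicate 1 lay above anti-PD-1 replicates 2 and 3. Bmp1 was called higher (log2 difference 1.03 ± 0.42, SE; limma adjusted p = 0.395), as were 3.9% of all tested genes. The call was lost in 4 of the 6 fits without 1 tumor and without the filter on low FPKM.

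Among 14 genes that form, sense or break down kinins, the peptides released from kininogens, 7 were tested, 1 was called higher and 1 lower (3.9% and 4.53% of all genes). The log2 differences were below 0 for 6 of the 7, with a median of -0.52 beside 0.01 over all genes, but the median was 0.16 without IgG replicate 2. Cpm, which encodes membrane carboxypeptidase M, had 28.5, 3.62 and 13.6 FPKM in the IgG replicates and 34.8, 76.4 and 58.2 in the anti-PD-1 replicates. Ece1, an endothelin-converting enzyme that also cleaves bradykinin, had 5.31, 10.9 and 8.97 FPKM in the IgG replicates and 3.89, 2.12 and 2.76 in the anti-PD-1 replicates. Neither gene's groups overlapped, as for 9.1% of all genes upward and 8.99% downward. The log2 differences were 2.12 ± 0.64 for Cpm (SE; limma adjusted p = 0.347) and -1.23 ± 0.28 for Ece1 (SE; limma adjusted p = 0.344), and both calls held without each tumor in turn. The peptidase genes Cpd (-0.33 ± 0.30) and Mme (-0.52 ± 0.64, log2 difference ± SE) and the tissue kallikrein gene Klk1 were tested and not called. The plasma kallikrein gene Klkb1 and the kinin receptor genes Bdkrb1 (at most 0.348 FPKM) and Bdkrb2 (at most 0.742 FPKM) were too low to test.

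**Figure D4:**
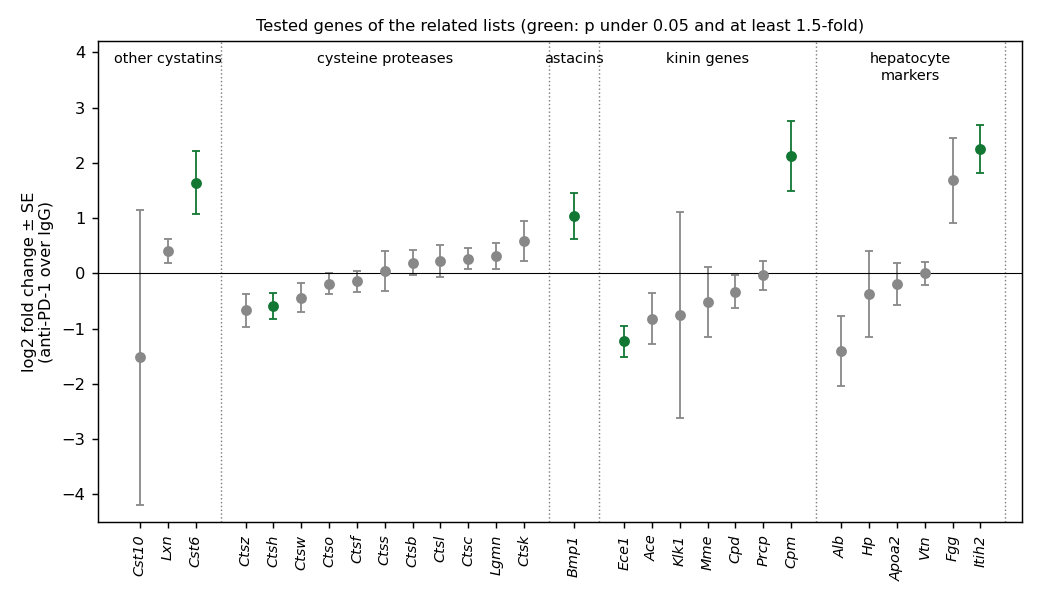
Log2 difference ± SE (anti-PD-1 over IgG) of the tested genes in the lists of other cystatins, cysteine proteases, astacins, kinin genes and hepatocyte markers, ordered within each list. Green points passed an unadjusted p under 0.05 and at least 1.5-fold. Cst6 (1.64), Bmp1 (1.03), Cpm (2.12) and Itih2 (2.25) were called higher, Ctsh (-0.59) and Ece1 (-1.23) lower, and the other points are grey.

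Since Fetub, Ahsg and Kng2 are liver genes, hepatocyte markers were read beside them. All 25 were above 0 FPKM in some tumor, 6 were tested, and 1 was called higher and 0 lower, beside 3.9% and 4.53% of all genes. The log2 differences of the 6 were above 0 for 3 and below 0 for 3, with a median of -0.10, while of the 19 too low to test 18 were below 0, so that 21 of the 25 lay below 0. Of all 15069 tested genes, 7418 were below 0, and no such share was taken over genes too low to test. Counts of some of the 18 rested mostly on IgG replicate 2, such as Apob (0, 26 and 9 reads in the IgG replicates) and Cps1 (0, 34 and 7), with 0 in each anti-PD-1 tumor. Fgb was spread more evenly, with 16, 23 and 10 reads in the IgG replicates and 0, 2 and 4 in the anti-PD-1 replicates. Albumin (Alb) was at 0, 6.12 and 1.70 FPKM in the IgG replicates and at 0, 0 and 0.0360 in the anti-PD-1 replicates. Its log2 difference was -1.40 ± 0.63 (SE; limma unadjusted p = 0.062), and Alb was called lower without IgG replicate 1 (-2.10) and with the replicate block. Alb reached the FPKM filter through the IgG tumors and fell below it without IgG replicate 2, which had 344 of its reads. Itih2, a heavy chain of a hyaluronan-binding plasma protein, was the one called, at 1.12, 0.314 and 0.198 FPKM in the IgG replicates and 9.89, 8.01 and 2.67 in the anti-PD-1 replicates (log2 difference 2.25 ± 0.44, SE; limma adjusted p = 0.344). Its groups did not overlap, as for 9.1% of all genes. Fgg, the fibrinogen gamma chain gene, had a log2 difference of 1.69 ± 0.76 (SE; limma unadjusted p = 0.062) with overlapping groups. It was between 0.97 and 2.53 without 1 tumor, and Fgg was called higher without IgG replicate 1, with the replicate block and by voom. Summed over the list, FPKM was 8.89 to 40.8 in the IgG tumors and 14.4 to 37.1 in the anti-PD-1 tumors.

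Markers of other cells overlapped between the groups when summed. Mammary tumor markers summed to 2923 to 3668 FPKM in the IgG and 2774 to 4261 in the anti-PD-1 tumors, with Krt8, Krt18, Epcam and Erbb2 present in every tumor and Epcam and Erbb2 higher in each anti-PD-1 tumor than in any IgG tumor, though not called. Such separation was seen for 9.1% of all genes upward and 8.99% downward, and calls for 3.9% and 4.53%. Of this list 1 gene was called, the luminal keratin gene Krt19, which was lower without overlap at 7.84, 77.9 and 7.46 FPKM in the IgG replicates and 4.09, 5.27 and 1.70 in the anti-PD-1 replicates (log2 difference -2.03 ± 0.85, SE; limma adjusted p = 0.404). The call of Krt19 was lost when any anti-PD-1 tumor was left out and by voom, quantile normalization, eBayes without trend and testing without a filter. The sums were 260 to 708 against 495 to 627 for macrophages, 22.9 to 959 against 21.1 to 142 for neutrophils (3.08 to 12.99 against 6.81 to 26.2 without Ltf, which reached 953 FPKM in IgG replicate 2), 7.43 to 13.3 against 5.40 to 11.5 for adipocytes and 6.96 to 10.0 against 7.78 to 12.4 for keratinocytes, whose marker Ivl was at 0. The desmosomal cadherin gene Dsg3, of the keratinocyte list, was called higher without overlap (0.309 to 1.96 against 2.62 to 4.76 FPKM; log2 difference 1.43 ± 0.36, SE; limma adjusted p = 0.344). The log2 differences of all 8 macrophage markers were above 0, with a median of 0.33, as were those of 7651 of the 15069 tested genes. Those of Adgre1 (0.005 ± 0.23), Csf1r (0.11 ± 0.28) and Cd14 (0.29 ± 0.66, log2 difference ± SE) lay within 1 SE of 0. Cd14 alone of the list had a lower mean in the anti-PD-1 group, at 170 against 178 FPKM. Of the 8, 1 was called, Cd68, at 13.8 to 18.3 against 22.1 to 30.7 FPKM (log2 difference 0.76 ± 0.19, SE, limma adjusted p = 0.344). The part of these cells in the differences of Fetub and Ahsg was not tested, and in bulk tumors fewer cells of a type and less RNA per cell cannot be told apart.

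The reads recovered from the FPKM values came to between 21320856 and 24164480 per tumor, and the median-of-ratios factors lay between 1.002 and 1.010. At these depths Ahsg in the IgG tumors and Kng2 in IgG replicates 2 and 3 were the low-count values on which differences of the members rest.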

How the data were processed

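RNAseq of 3 IgG and 3 anti-PD-1 tumors was analyzed, with groups taken from the sample titles. The submitters' processing notes and the paper name FastQC 0.11.9, cutadapt 3.5, Bowtie2 2.4.1, RSEM 1.3.1, DESeq2 1.36.0 in R 4.1, the mm10 build and Ensembl release 99. The authors deposited FPKM values per tumor for 54532 gene IDs, of which 54495 matched GENCODE M21 (GRCm38) and 37 did not, and how the FPKM was derived from RSEM output is not given in the sources used here. Multiplied by merged exon length, 97.0% to 97.3% of the values above 0 were whole reads within 0.1. RSEM estimates need not be whole, so these recovered reads may not be the RSEM counts, and how reads shared between genes were assigned is uncertain.

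FPKM was divided by median-of-ratios factors and log2(FPKM + 1) was tested with limma 3.58.1 in R 4.3.3 (eBayes with trend, two-sided, no block, Benjamini-Hochberg over the 15069 genes with a mean deposited FPKM of at least 0.5). Single members were also tested by exact permutation (scipy 1.17.1). The scripts were tested on simulated data. Alternatives were 0.1 in place of 1, no filter, a mean FPKM of at least 2, deposited FPKM, quantile normalization, no trend, a replicate block, voom on recovered reads and leaving out each tumor. Named genes were the members, tested neighbors, the 3 most abundant and the nominally changed genes of the family, protease and kinin lists, the 5 nearest profiles and defining or nominally changed markers of other tissues. Members and lists were chosen with earlier results of these data known. Promoters came from RefSeq (GRCm38.p6), and proteins were not analysed here.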

Additional observations from a re-analysis of the deposited data

How the results depend on the processing

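The calls of Ahsg, Cpm and Ece1 held under each alternative tried. With 0.1 added in place of 1, the log2 differences of the untested Hrg and Kng1 were -0.43 and 0.44. Quantile normalization turned Ctss to -0.095 and called 2 cysteine proteases, and the astacin call was lost without a filter (0 called). Voom on recovered reads called 0 other cystatins, because the reads of Cst6 were not whole and it was not fitted, and left 1 gene at an adjusted p under 0.05. That gene, as in the fit without IgG replicate 3, was Fetub, which these same values had chosen, so this is no test of it.

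Leaving out 1 tumor moved the log2 difference of Cst3 between -0.22 and 0.18, of Cst10 between -4.01 and 0.84, of Ctss between -0.38 and 0.33, of Mme between -0.96 and 0.16 and of Eif4a2 between -0.36 and 0.054. Leaving out IgG replicate 2 gave the fewest genes called (369 higher and 388 lower) and leaving out IgG replicate 1 the most (1000 higher and 1242 lower), and 0 to 12 genes passed an adjusted p under 0.05. Called were 0 to 1 cystatins, 0 to 3 cysteine proteases, 0 to 1 astacins and 1 to 5 neighbors. Which tumor property moves these counts was not tested.

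Replicate numbers were shared by the groups, but same-numbered tumors correlated at -0.16, 0.01 and 0.19 in their deviations from the group means. Tumors with different numbers correlated between -0.26 and 0.24. No pairing by number was therefore seen, though 3 tumors per group cannot exclude it. With the replicate block, 0 cysteine proteases were called (Ctsh was lost), Alb was called lower and Fgg higher, and the calls of the members did not change. Depth limits Hrg and Kng1, which had at most 23 reads.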

Other observations

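Cst10 and Klk1, which encode a cystatin and a tissue kallikrein, were high in the same pair of tumors, one from each group. Cst10 was at 12.6, 554 and 0.196 FPKM in the IgG replicates and at 228, 0.494 and 0.101 in the anti-PD-1 replicates, each in the order of replicates 1, 2 and 3. Klk1 was at 1.05, 69.8 and 0.0380 FPKM in the IgG replicates and at 29.5, 0 and 0.0390 in the anti-PD-1 replicates. The milk protein genes Csn2 and Wap were also highest in IgG replicate 2 and anti-PD-1 replicate 1, with Csn2 at 378 and 136 FPKM and Wap at 16.9 and 10.5 FPKM in these tumors. Lalba, another milk protein gene, was instead highest in replicate 3 of both groups, at 177, 864 and 1238 FPKM in the IgG replicates and 77.1, 30.2 and 577 in the anti-PD-1 replicates.

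Cst7, which encodes the leukocyte cystatin F, was below the filter and not tested. Its FPKM was 0.599, 0.634 and 0.665 in the IgG replicates and 0.158, 0.293 and 0.342 in the anti-PD-1 replicates. These values came from 13, 15 and 16 reads against 4, 7 and 8. The groups did not overlap, as for 8.99% of all tested genes in the lower direction, a share not taken over genes below the filter. Cst7 was named after its values were seen.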
